A study of Mus musculus with 21 samples.

Results

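The effect of the Spo11-Cre transgene on the transcriptome of oocytes that carry 1 wild-type and 1 floxed Kif11 allele was read from 9 of the 21 libraries of the series. The members were chosen by genotype label alone. They are 4 libraries labelled WtFlox, called wt/fl here, and 5 libraries labelled WtFlox, Spo11-Cre, called wt/fl Spo11-Cre. Each library held poly(A) RNA of 3 full-grown germinal vesicle (GV) oocytes and was made with the SMART-seq v4 kit from hormone-primed adult females on a C57BL/6 background, with 1 or 2 libraries from a mouse. The labels give no age. Another 8 libraries, 4 labelled FloxDel (fl/del, a floxed allele over a constitutively deleted one) and 4 labelled FloxDel, Spo11-Cre (fl/del Spo11-Cre), served to see whether a change came back in other oocytes with the same transgene. All 4 groups share the floxed allele, so the series holds no oocytes with 2 wild-type alleles. Cre deletes the floxed Kif11 allele in both pairs, which leaves 1 intact allele in wt/fl Spo11-Cre and none in fl/del Spo11-Cre. An effect of Cre, as named below, is thus that of the transgene and of Kif11 deletion together, which cannot be told apart. The 2 pairs also differ in how much Kif11 is lost with Cre. Cre was driven by Spo11 regulatory sequence in a transgene whose place in the genome is not given in the sources used here.

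SPO11 is the topoisomerase-like protein that cuts both DNA strands to start meiotic recombination, and its gene is active in early meiotic prophase, so that Spo11-Cre recombines floxed alleles in the fetal ovary, long before the oocyte grows. Kif11 encodes a plus-end-directed kinesin that slides antiparallel spindle microtubules apart. A full-grown GV oocyte has silenced its transcription and lives on stored mRNA, which it translates and degrades in programmed waves as meiosis resumes.

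Total counts ran from 12729969 to 14283549 in wt/fl and from 13046876 to 18454549 in wt/fl Spo11-Cre, and were 1.21-fold higher on average in the latter (exact permutation test, two-sided, p = 0.0476, where 4 against 5 libraries can reach 0.0159). Genes with a count above 0 numbered 18021 to 18529 and 18234 to 19444. All 18 oocyte markers were detected in every library. Their summed CPM (the count divided by the library's total, times 1000000) differed by less than the spread, with a ratio of 1.01 (exact permutation p = 0.841). Single markers were not all level. By the edgeR test used below Nobox, Zar1 and Zp1 were lower and Ooep higher, with log2 fold changes of -0.42, -0.32, -0.30 and 0.33. The 22 follicle-cell markers summed to 490 to 568 CPM in wt/fl and 403 to 511 in wt/fl Spo11-Cre (exact permutation p = 0.0476), nearly all of it from Serpine2, Cyp19a1 and Nr5a2. Of the 22, 4 were at 0 in all 9 libraries, namely Foxl2, Amhr2, Inhbb and Ptx3. Kitl and Star had counts in all 9, at up to 7.42 and 1.73 CPM. Amh, Has2, Fst, Cyp17a1 and Hsd17b1 had counts only in wt/fl, and Inhba and Nr5a1 only in wt/fl Spo11-Cre, each at 1.21 CPM or less. Of 15 blood and stroma markers 9 were at 0 in all 9 libraries. The part of depth and of the follicle markers in the results was not tested. The letter in the library names is A in all libraries without Cre and B or C in all with it. The labels do not say what it stands for, and it cannot be told apart from Cre. The names also hold 2 prefixes in wt/fl and 3 in wt/fl Spo11-Cre. If a prefix marks a mouse, which the labels do not say, the p-values here and below rest on fewer independent units than libraries.

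Kif11 itself had 38.9, 43.2, 23.8 and 32.2 CPM over all exons in wt/fl and 25.5, 30.5, 21.8, 27.6 and 17.6 CPM in wt/fl Spo11-Cre. The groups overlapped. The means were 34.5 ± 8.46 (SD, n = 4) and 24.6 ± 5.04 CPM (SD, n = 5), a log2 fold change of -0.47 ± 0.20 (SE) that did not pass the test (adjusted p = 0.237, edgeR). Exon 1 and exon 22 are also counted on their own, and stood at 59.7% and 85.5% of wt/fl (exact permutation p = 0.159 and 0.365). The exon 1 value rests on few counts, 16 to 29 per library in wt/fl and 6 to 29 in wt/fl Spo11-Cre. Its means were 3.41 ± 1.01 and 2.03 ± 1.47 CPM (SD, n = 4 and 5), and the groups overlapped. Spo11 had 0 counts in all 9 libraries, which allows a sum of up to 3 counts per library.

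Across the genome 22383 genes were tested with edgeR's quasi-likelihood test, and 491 of them, 2.19%, passed a Benjamini-Hochberg adjusted p of 0.05. In wt/fl Spo11-Cre 194 were higher (0.867% of genes tested) and 297 were lower (1.33%). The changes were small. The median size was 0.51 on the log2 scale for the higher genes and 0.49 for the lower ones, and 33 higher and 16 lower genes changed at least 2-fold. The CPM of the 4 wt/fl and 5 wt/fl Spo11-Cre libraries did not overlap for 133 of the higher and 218 of the lower genes, against 4.95% of all genes tested. Single libraries weighed on these counts. Without wt/fl replicate 2 only 67 higher and 112 lower genes were called, without wt/fl replicate 4 the counts were 115 and 151, and without wt/fl Spo11-Cre replicate 5 they were 89 and 174. A core of 40 higher and 75 lower genes was called in each of the 9 fits that leave out 1 library, in sums of libraries with a shared name prefix, and after an adjustment for GC content. This core was defined after the data were seen, and a called gene outside it lost its call in at least 1 of those fits. At an unadjusted p under 0.05 there were 3358 genes.

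Base composition moved with the groups. Among genes with a mean count of at least 50, the called lower genes had a median transcript GC content of 52.4% and the called higher genes 45.6%, against 49.0% for all such genes. Split into 5 bins of equal size, the bin of lowest GC content held 72 higher and 10 lower genes and the bin of highest GC content 18 higher and 114 lower genes. The median log2 fold change ran from 0.10 in the lowest bin to -0.11 in the highest. In single libraries, the level of the highest bin less that of the lowest was 0.06, 0.22, -0.03 and 0.21 on the log2 scale in wt/fl and -0.003, -0.08, -0.10, -0.10 and -0.06 in wt/fl Spo11-Cre (exact permutation p = 0.0317). Replicates 2 and 4 of wt/fl thus stood highest, the same libraries whose removal cost the most calls among those without Cre. The fl/del and fl/del Spo11-Cre libraries did not differ in this measure beyond their spread (exact permutation p = 0.457). With offsets that take out each library's GC trend, 172 genes were higher and 218 lower (1.74% in all), and 131 of the 194 and 188 of the 297 were called again. The part of GC content in the remaining calls was not tested.

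**Figure D1:**
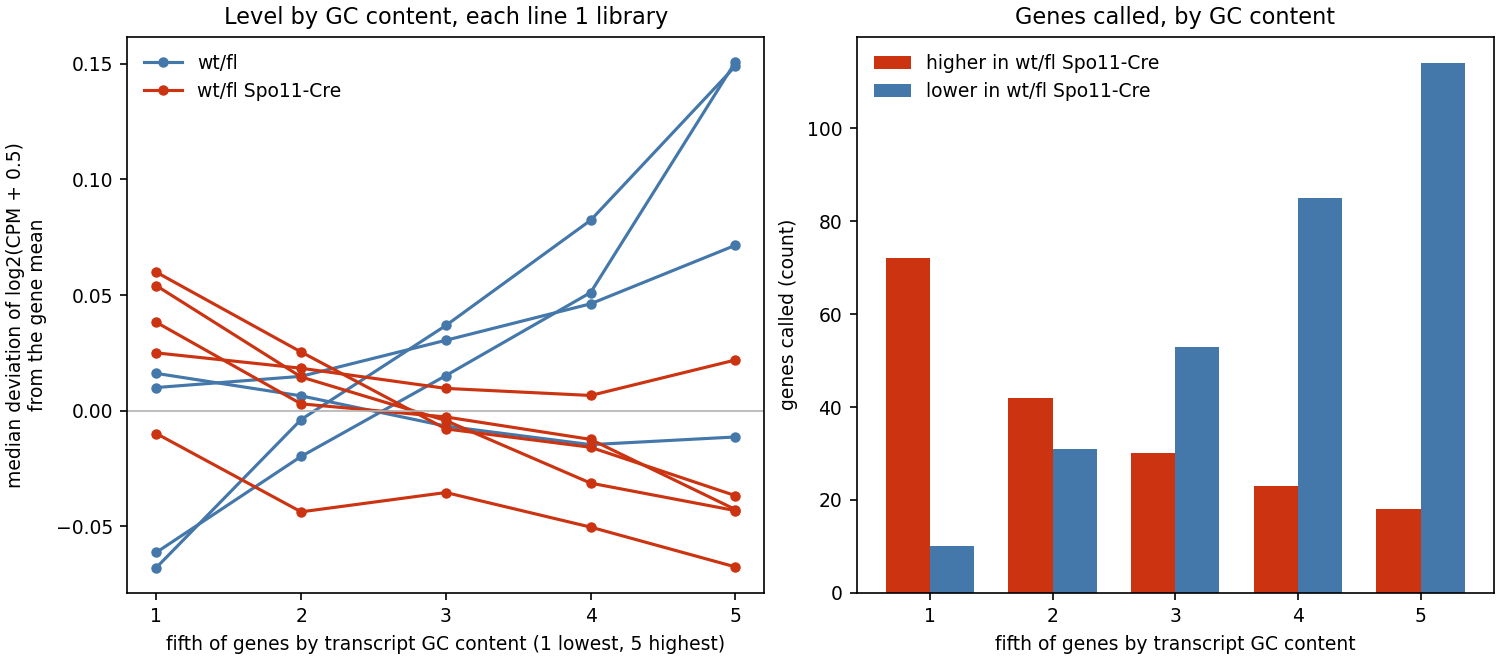
Left, median deviation of log2(CPM + 0.5) from the gene mean (vertical) in 5 bins of genes by transcript GC content (horizontal), with 1 line for each of the 4 wt/fl and 5 wt/fl Spo11-Cre libraries. Right, bars count the genes called higher or lower in wt/fl Spo11-Cre in the same bins, from 72 higher and 10 lower in the lowest bin to 18 higher and 114 lower in the highest.

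The second pair of genotypes gave far fewer calls. In fl/del Spo11-Cre against fl/del 54 of 22383 genes passed (0.241%). This pair held 8 libraries, and fl/del replicate 3 had only 7205010 counts and 16740 genes with a count above 0. The other libraries of the pair had 13155893 to 17668498 counts. The part of depth in the number of calls in this pair was not tested. Of the 491 genes called in wt/fl Spo11-Cre, 12 of the higher and 3 of the lower genes were also called there in the same direction, and mt-Rnr2 was called in the opposite one. The median log2 fold change in the fl/del pair was 0.12 over the 194 higher genes and -0.04 over the 297 lower genes, against 0.01 over all genes tested, and 70.6% of the higher and 62.6% of the lower genes had the same sign there, where 50.9% of all genes tested were above 0 and 48.3% below. Libraries with and without Cre did not overlap in CPM in both pairs for 26 of the higher and 7 of the lower genes, where 3.65% of all genes tested did not overlap in the fl/del pair. These 2 comparisons share no library, but they were fitted together and share 1 estimate of the spread. Of the 15 genes called in both, 6 formed 3 pairs of neighbours and 9 lay apart. Rae1 and Rbm38 lie beside Spo11 on chromosome 2, Naa20 and Crnkl1 lie side by side elsewhere on chromosome 2, and Cul1 and Ezh2 are neighbours on chromosome 6. Akr1b8 and Halr1 lie on chromosome 6 too, several megabases from these and from each other. The others, each on another chromosome, were Zcchc7, Kbtbd11, Dhx29, Ighg2b, Timd4, Elf3 and Gm7525. For none of the 15 did the Cre effect differ between genotypes by the test of the difference (interaction adjusted p of 0.364 or more, edgeR).

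**Figure D2:**
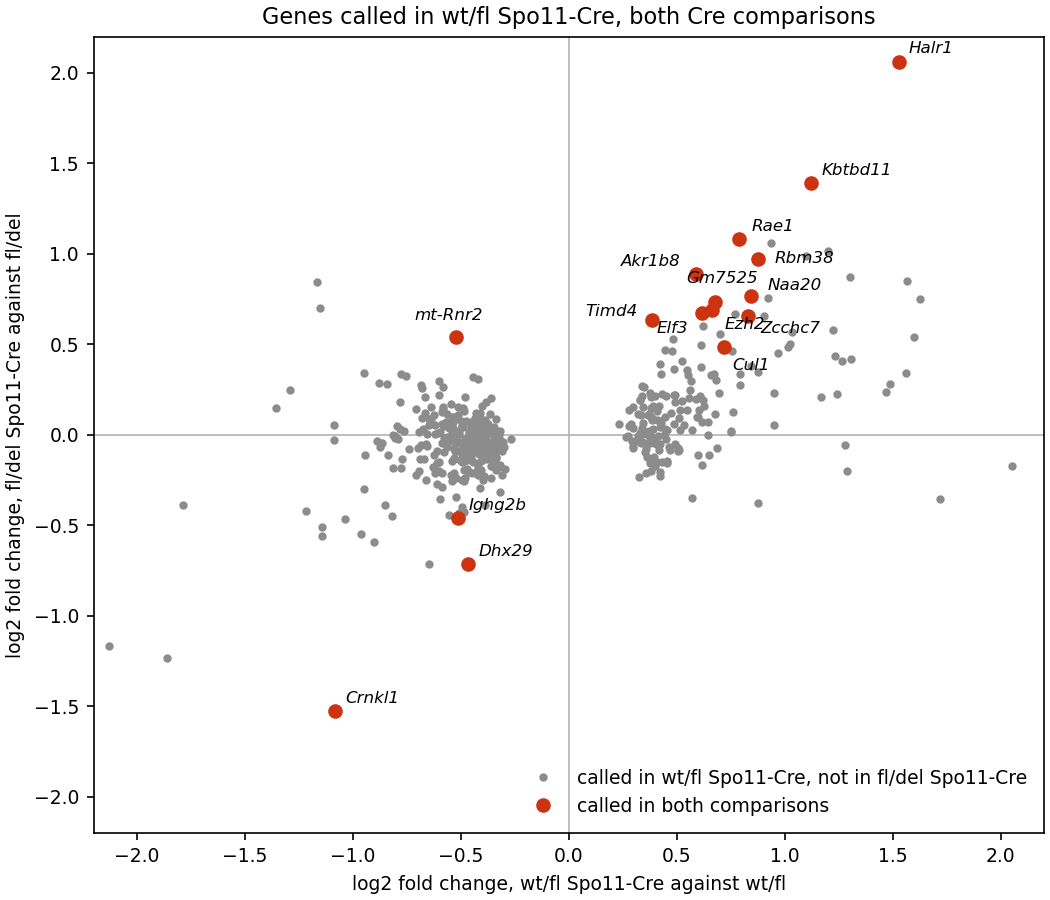
Log2 fold change in wt/fl Spo11-Cre against wt/fl (horizontal) and in fl/del Spo11-Cre against fl/del (vertical) for the genes called in the first. Each point is 1 gene, 480 lie within the axes and 11 outside, and the named larger points are the genes called in both. The median on the vertical axis is 0.12 for the higher and -0.04 for the lower genes, and Rae1, Rbm38, Cul1, Ezh2, Naa20, Zcchc7 and Crnkl1 lie far from 0 on both axes.

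The starts of these paired genes are shown because their members moved together or in opposite directions in both comparisons. Each sequence runs from 250 bases before to 50 after the RefSeq start (GRCm38.p6), 5′ to 3′ on the gene's strand. Capitals mark, on either strand, the GC box GGGCGG, the CCAAT box CCAAT and the TATA box TATAAA.

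Rae1 promoter, chr2:172999867-173000166, plus strand: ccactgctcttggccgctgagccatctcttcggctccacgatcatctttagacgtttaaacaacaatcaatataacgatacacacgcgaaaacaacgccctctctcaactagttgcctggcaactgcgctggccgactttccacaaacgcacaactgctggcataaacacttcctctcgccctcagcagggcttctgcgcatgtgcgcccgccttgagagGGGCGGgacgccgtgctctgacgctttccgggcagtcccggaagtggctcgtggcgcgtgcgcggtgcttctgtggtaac
Rbm38 promoter, chr2:173021652-173021951, plus strand: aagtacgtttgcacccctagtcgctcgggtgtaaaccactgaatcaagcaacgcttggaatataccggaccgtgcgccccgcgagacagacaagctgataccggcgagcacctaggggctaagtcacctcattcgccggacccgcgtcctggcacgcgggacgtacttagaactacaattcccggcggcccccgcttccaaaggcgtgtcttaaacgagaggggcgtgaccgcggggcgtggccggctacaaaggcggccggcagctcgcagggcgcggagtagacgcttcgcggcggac
Naa20 promoter, chr2:145902991-145903290, plus strand: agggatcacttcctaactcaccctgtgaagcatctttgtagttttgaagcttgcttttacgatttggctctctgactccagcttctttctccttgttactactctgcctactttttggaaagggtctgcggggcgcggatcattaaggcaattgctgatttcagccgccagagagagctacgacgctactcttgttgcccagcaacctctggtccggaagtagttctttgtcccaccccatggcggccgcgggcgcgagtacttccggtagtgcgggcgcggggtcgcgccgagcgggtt
Crnkl1 promoter, chr2:145934651-145934950, minus strand: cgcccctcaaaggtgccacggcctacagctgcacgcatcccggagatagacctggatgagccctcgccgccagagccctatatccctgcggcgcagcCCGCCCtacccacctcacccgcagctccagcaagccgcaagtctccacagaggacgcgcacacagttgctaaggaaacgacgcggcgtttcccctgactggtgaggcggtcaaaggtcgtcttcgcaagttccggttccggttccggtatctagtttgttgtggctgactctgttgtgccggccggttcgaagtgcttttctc
Cul1 promoter, chr6:47453482-47453781, plus strand: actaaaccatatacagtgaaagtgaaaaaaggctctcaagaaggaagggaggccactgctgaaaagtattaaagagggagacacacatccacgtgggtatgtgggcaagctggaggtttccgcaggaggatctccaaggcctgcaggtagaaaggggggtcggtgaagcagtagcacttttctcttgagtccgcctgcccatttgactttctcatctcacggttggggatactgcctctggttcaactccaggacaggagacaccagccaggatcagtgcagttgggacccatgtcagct
Ezh2 promoter, chr6:47594981-47595280, minus strand: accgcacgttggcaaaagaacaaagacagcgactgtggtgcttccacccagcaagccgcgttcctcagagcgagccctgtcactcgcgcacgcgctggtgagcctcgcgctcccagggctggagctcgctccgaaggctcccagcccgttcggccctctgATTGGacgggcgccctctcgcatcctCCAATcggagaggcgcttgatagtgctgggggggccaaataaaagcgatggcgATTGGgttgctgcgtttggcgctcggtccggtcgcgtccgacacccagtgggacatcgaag

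Rae1 and Crnkl1 have 1 GC box each in this window, Ezh2 has 3 CCAAT boxes, and Rbm38, Naa20 and Cul1 have none of the 3 motifs. Of all 27025 RefSeq promoters of this length, 36% hold a GC box, 37.9% a CCAAT box and 14.2% a TATA box. Among genes with a mean count of at least 50 a GC box was found for 61.9%, against 73.4% of the promoters of called lower genes (174 of 237) and 66 of the 132 promoters of called higher genes. In the same order, a CCAAT box was found for 40.2%, 46.4% and 36.4%, and a TATA box for 7.34%, 3.80% and 10.6%. The median GC content of these promoters differed too, at 60.3%, 62% and 56.7%.

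The genes beside Spo11 rose. Rae1 (chr2:173000117-173015739), whose protein binds nuclear pores and mRNA, starts 6540 bases beyond the end of Spo11. It had 216, 205, 215 and 192 CPM in wt/fl and 393, 329, 361, 356 and 320.3 CPM in wt/fl Spo11-Cre. Every Cre library lay above every library without Cre, and the log2 fold change was 0.79 ± 0.09 (SE, adjusted p = 8.66e-09, edgeR). Rae1 had 187, 169.9, 184 and 213 CPM in fl/del and 431, 344, 410.4 and 432 CPM in fl/del Spo11-Cre, again without overlap (log2 fold change 1.08, adjusted p = 6.42e-13, edgeR). Rbm38 (chr2:173020498-173034734), an RNA-binding protein that controls mRNA stability and a known p53 target, starts 4758 bases further on. It had 90.4, 127, 99.99 and 140.4 CPM in wt/fl and 202, 155, 193, 201 and 279 CPM in wt/fl Spo11-Cre, a log2 fold change of 0.88 ± 0.12 (SE, adjusted p = 1.38e-06, edgeR). It ranged from 84.3 to 90.5 CPM in fl/del and from 154 to 193 in fl/del Spo11-Cre. Of the 14 other genes within 1 Mb of Rae1 with a mean count of at least 10, none was called in either comparison (edgeR). At an unadjusted p under 0.05 there was 1 in the wt/fl and 2 in the fl/del pair, and DESeq2 called 1 and 0. DESeq2 gave no adjusted p for 5 of the 14 in the wt/fl and 1 in the fl/del pair, and could not call these. Over all 25 tested genes within 1 Mb of Spo11, 2 were called, both higher.

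The same held for Cul1 and Ezh2, which lie 3999 bases apart on chromosome 6 with their ends facing each other. Cul1 (chr6:47453398-47526139) is the scaffold of the SCF ubiquitin ligases, which degrade cell cycle proteins, and Ezh2 (chr6:47530139-47595341) is the histone H3 lysine methyltransferase of Polycomb repressive complex 2. Cul1 had 1228, 1418, 1295 and 1247 CPM in wt/fl and 2147, 2057, 2199, 2082 and 2010 CPM in wt/fl Spo11-Cre, a log2 fold change of 0.72 ± 0.07 (SE, adjusted p = 2.72e-10, edgeR). Per length Cul1 was the most abundant of the paired genes in wt/fl, at a mean of 788 TPM (transcripts scaled for length and library total), against 106 for Ezh2, 210.4 for Crnkl1, 199 for Rae1, 72.1 for Naa20 and 98.1 for Rbm38. Ezh2 had 307, 298, 278 and 275 CPM in wt/fl and 419, 464, 465, 473 and 430.4 CPM in wt/fl Spo11-Cre, a log2 fold change of 0.66 ± 0.08 (SE, adjusted p = 1.06e-07, edgeR). Both genes rose in fl/del Spo11-Cre too, with log2 fold changes of 0.49 and 0.69. None of the 12 other genes within 1 Mb was called by edgeR or DESeq2 in the wt/fl pair, and 1 had an unadjusted p under 0.05. No adjusted p came from DESeq2 for 6 of the 12, which it could not call.

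Naa20 and Crnkl1 moved in opposite directions. Naa20 (chr2:145902099-145916425) encodes the catalytic subunit of the N-terminal acetyltransferase NatB, and Crnkl1 (chr2:145917479-145935014) a spliceosome protein. Their ends are 1053 bases apart. Naa20 had 98.6, 109, 105 and 122 CPM in wt/fl and 156, 159, 221, 235 and 187 CPM in wt/fl Spo11-Cre, a log2 fold change of 0.84 ± 0.10 (SE, adjusted p = 2.4e-07, edgeR). Crnkl1 had 516, 487, 156 and 158 CPM in wt/fl, and 145, 164, 158, 148 and 145 CPM in wt/fl Spo11-Cre, a log2 fold change of -1.08 ± 0.17 (SE, adjusted p = 3.94e-05, edgeR). The wt/fl libraries thus split by their name prefix, with replicates 1 and 2 about as high as the fl/del libraries (477, 451, 416 and 428 CPM) and replicates 3 and 4 at the level of the Cre libraries. In fl/del Spo11-Cre Crnkl1 had 143, 139.9, 175 and 166 CPM (log2 fold change -1.53). Naa20 showed no such split in wt/fl. The library kit does not mark strand, so reads from overlapping transcripts of facing genes cannot be told apart. None of the 7 other genes within 1 Mb was called by edgeR in the wt/fl pair, where 1 had an unadjusted p under 0.05 and DESeq2 called 1. No adjusted p came from DESeq2 for 4 of the 7.

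**Figure D3:**
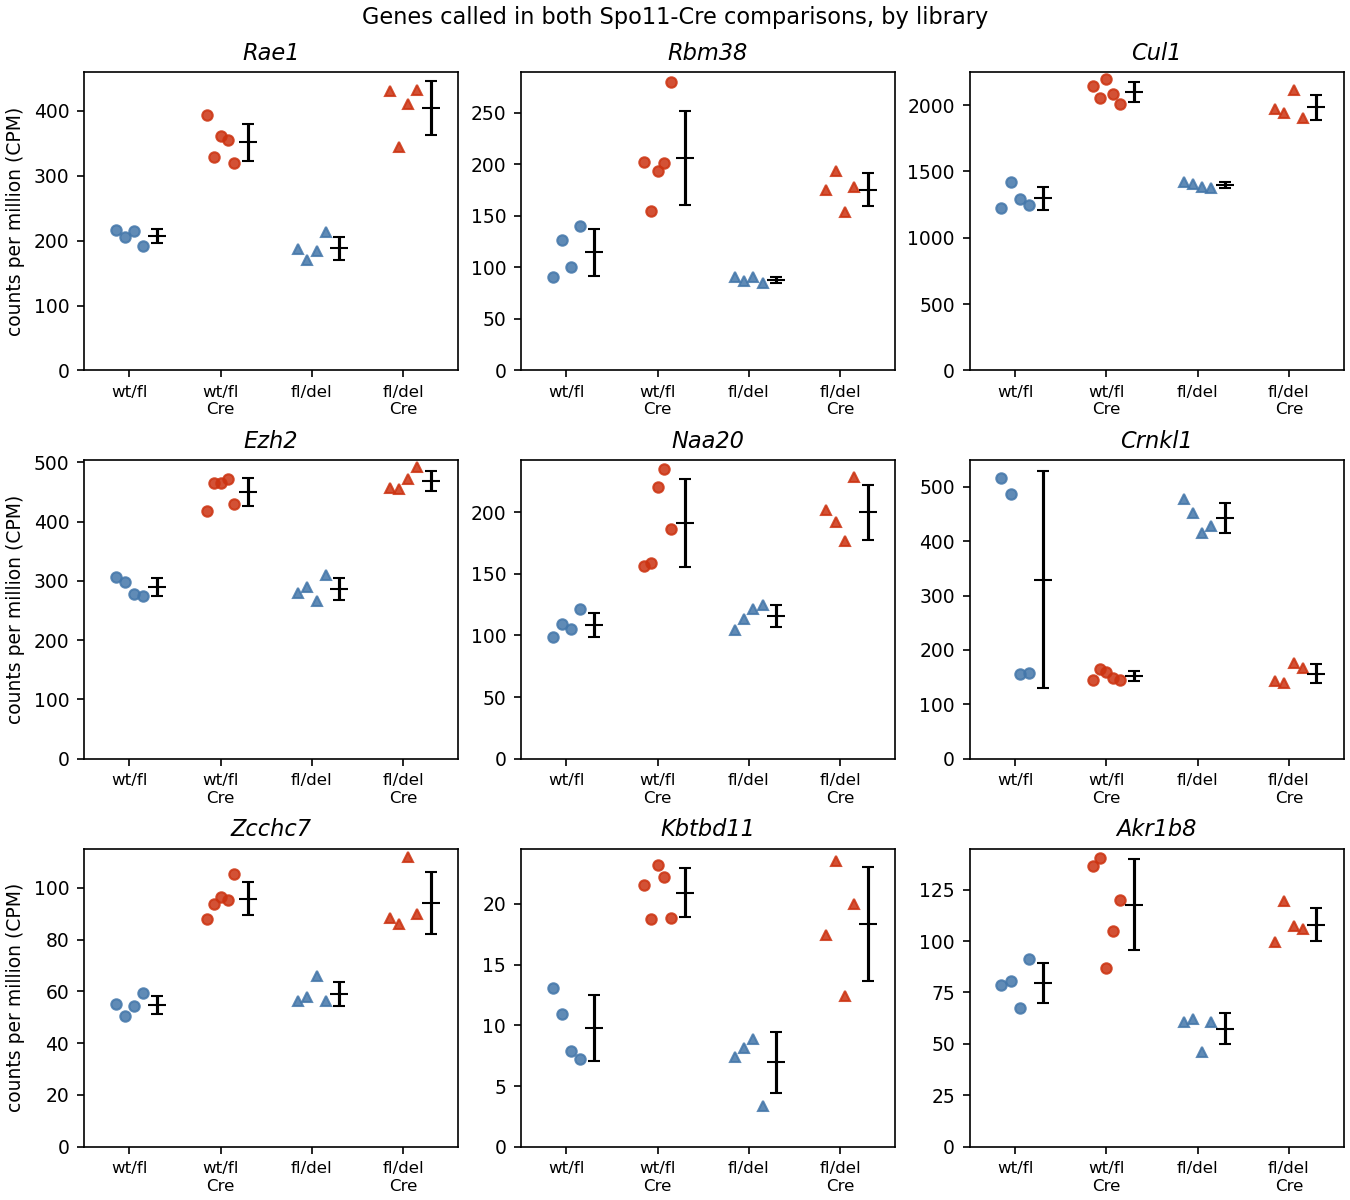
CPM (vertical) of Rae1, Rbm38, Cul1, Ezh2, Naa20, Crnkl1, Zcchc7, Kbtbd11 and Akr1b8 in each library of the 4 genotypes (horizontal). Points are libraries, and the crosses beside them are the mean ± SD of the group. In the Rae1, Rbm38, Cul1, Ezh2 and Naa20 panels every library with Cre lies above every library without it, and in the Crnkl1 panel 2 of 4 wt/fl libraries lie at the level of the libraries with Cre.

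Zcchc7 on chromosome 4 (chr4:44755877-44932215), a zinc knuckle protein of nuclear RNA surveillance, stood alone. It had 55.3, 50.5, 54.3 and 59.2 CPM in wt/fl and 88.00, 93.9, 96.5, 95.5 and 105 CPM in wt/fl Spo11-Cre, a log2 fold change of 0.83 ± 0.11 (SE, adjusted p = 6.97e-07, edgeR), and 0.66 in the fl/del pair, with none of 17 others within 1 Mb called by edgeR or DESeq2 or under an unadjusted p of 0.05 in the wt/fl pair. No adjusted p came from DESeq2 for 3 of these 17. Kbtbd11, a kelch protein, rose from 9.77 ± 2.74 to 20.9 ± 2.02 CPM (SD, n = 4 and 5), with log2 fold changes of 1.12 and 1.39 in the wt/fl and fl/del pairs. Akr1b8, an aldo-keto reductase, rose by 0.59 and 0.89 on the log2 scale. Dhx29, a helicase of translation initiation, fell from 69.4 ± 4.78 to 49.4 ± 6.85 CPM, and Ighg2b, an immunoglobulin heavy chain constant gene, from 316 ± 33.2 to 218 ± 17.5 CPM. Its neighbour Ighg1 had 226 ± 11.4 and 178 ± 21.4 CPM, with a log2 fold change of -0.32 in both pairs, called in the wt/fl pair (adjusted p = 0.0393, edgeR) and not in the fl/del pair (adjusted p = 0.221, edgeR).

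**Figure D4:**
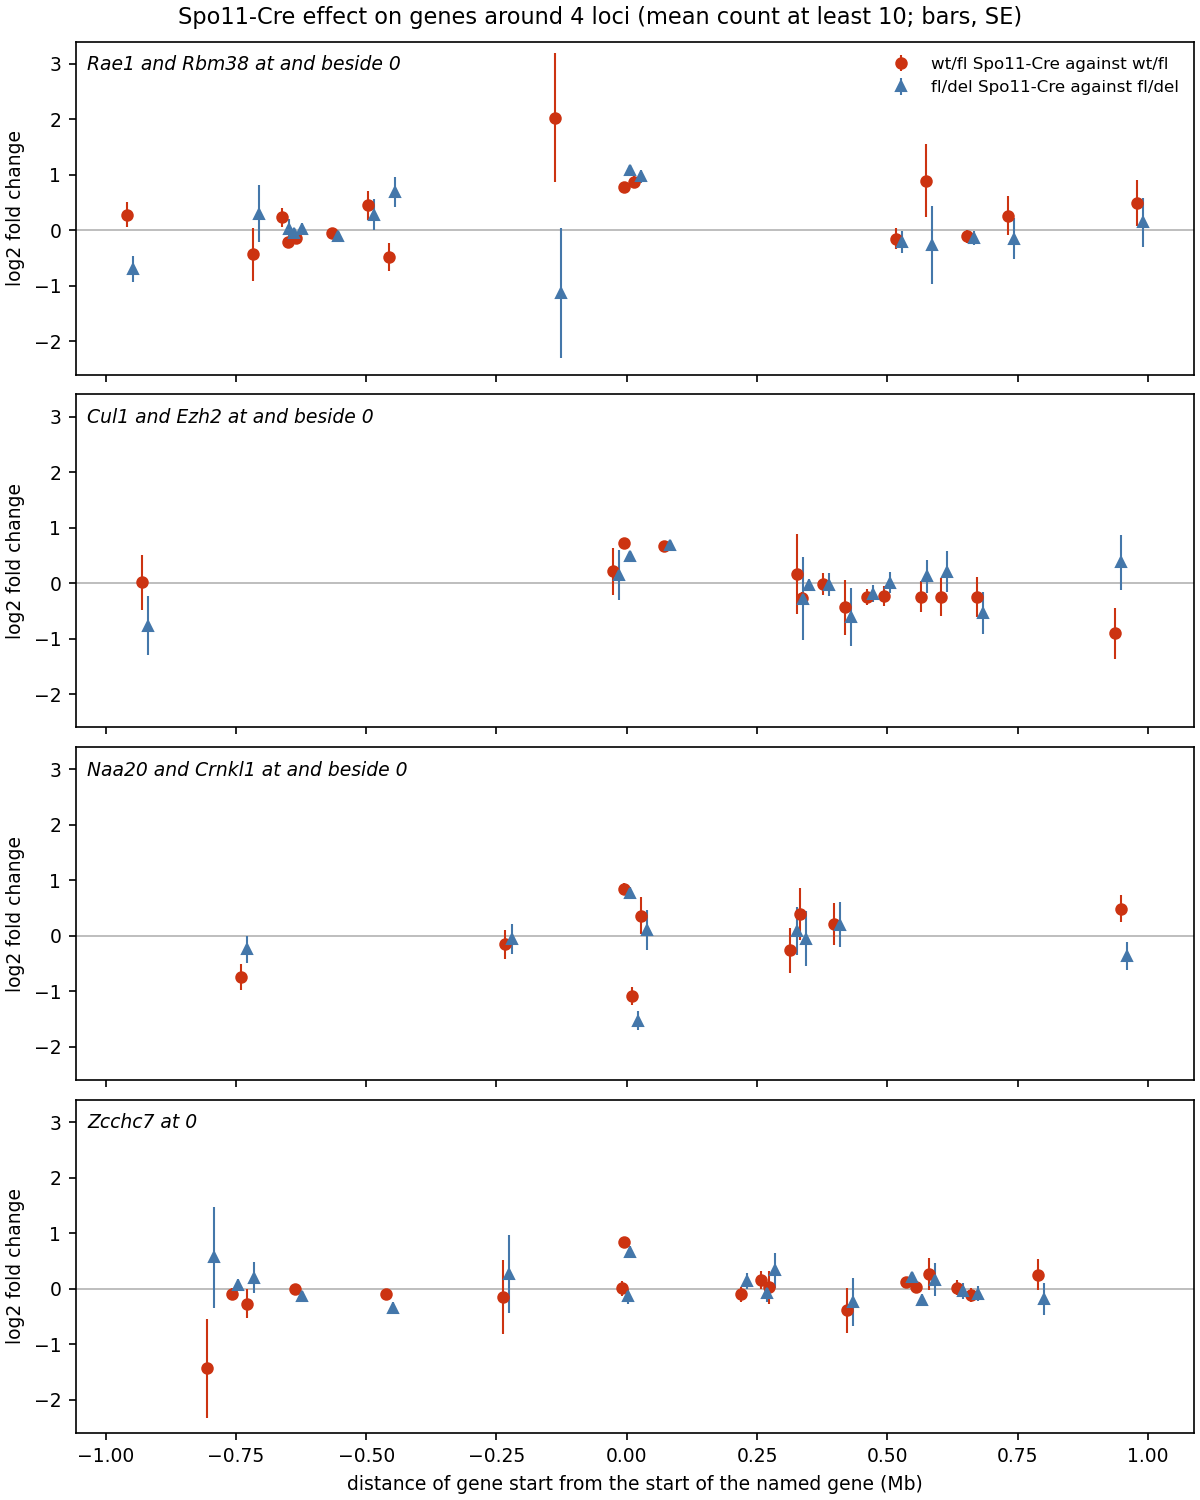
Log2 fold change (vertical) of tested genes against their distance in Mb from Rae1, Cul1, Naa20 and Zcchc7 (horizontal), in wt/fl Spo11-Cre against wt/fl and in fl/del Spo11-Cre against fl/del. Circles (wt/fl pair) and triangles (fl/del pair) are genes with a mean count of at least 10, drawn slightly apart, and bars are standard errors. The named genes at and beside 0 were called in both pairs and none of the others was.

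The genes with the largest changes in wt/fl Spo11-Cre were mostly scarce transcripts. Among those whose groups did not overlap, Sgms2, a sphingomyelin synthase, had 4.20, 8.64, 5.31 and 2.27 CPM in wt/fl and 13.9, 15.8, 17.1, 15.6 and 14.997 CPM in wt/fl Spo11-Cre, a log2 fold change of 1.63 ± 0.30 (SE, adjusted p = 0.000865, edgeR). Fstl5, a follistatin-like secreted protein, rose from 2.73 ± 1.01 to 8.87 ± 3.10 CPM, and Cldn34d, a claudin family gene, from 6.07 ± 2.36 to 16.7 ± 3.42 CPM. These 3 of the 12 largest increases belonged to the core. Of the 12 largest decreases 2 did. Cldn15, a tight junction claudin, had 52.4, 61.98, 40.03 and 36.2 CPM in wt/fl and 12.3, 24.4, 24.1, 23.3 and 16.7 CPM in wt/fl Spo11-Cre, a log2 fold change of -1.22 ± 0.19 (SE, adjusted p = 3.94e-05, edgeR). Tmcc2, a membrane protein of the endoplasmic reticulum, fell from 27.8 ± 6.93 to 12.9 ± 2.12 CPM. In the fl/del pair the log2 fold changes of these 5 genes were 0.75, -0.36, 0.28, -0.42 and 0.05, and none was called.

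Abundant transcripts changed by less. Plat, tissue plasminogen activator, whose mRNA is stored dormant in the growing oocyte, had 2482, 2135, 2057 and 2725 CPM in wt/fl and 1987, 1579, 1597, 1487 and 1301 CPM in wt/fl Spo11-Cre, a log2 fold change of -0.54 ± 0.10 (SE, adjusted p = 0.000513, edgeR). Nobox, the homeobox factor that drives oocyte-specific genes, fell from 707 ± 77.9 to 521 ± 54.4 CPM, and Kif22, a chromosome-arm kinesin, from 648 ± 38.1 to 489.6 ± 32.4 CPM. Oas1c, Tm9sf2 and Ccndbp1 fell as well, by 0.36, 0.43 and 0.34 on the log2 scale. Among the higher genes, Hsp90aa1, the inducible HSP90 chaperone, had 2160, 2004, 2235 and 2200 CPM in wt/fl and 2828, 2938, 2786, 2713 and 2468 CPM in wt/fl Spo11-Cre, a log2 fold change of 0.38 ± 0.07 (SE, adjusted p = 0.000667, edgeR). Of the 10 most abundant genes in each direction without overlap, 3 of the higher and 6 of the lower ones belonged to the core. In the fl/del pair Plat, Nobox, Kif22 and Hsp90aa1 had log2 fold changes of 0.01, 0.05, -0.004 and -0.02, and mean CPM in both fl/del groups lay between the wt/fl and wt/fl Spo11-Cre means for each of these 4.

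Gene lists were read by their counts beside the 2.19% called over all genes. They were also read by their median over members with a mean count of at least 10, beside 0.01 for all 14402 such genes. All but 1 of the 491 called genes had such a count, as did the members of most lists. Of 10441 genes with a mean count of at least 50, 186 were called higher and 293 lower, a larger share than 2.19%. A share above 2.19% is therefore not by itself a result about a list. Genes of translation and respiration are given first. Of 78 tested cytosolic ribosomal protein genes 8 were called, all higher. The median log2 fold change was 0.25, and 73 of 78 (93.6%) lay above 0, against 51.6% of all genes. Rpl7 rose from 85.7 ± 8.01 to 118 ± 15.2 CPM, and Rps6 from 129.5 ± 9.20 to 170.1 ± 8.55 CPM. After the GC adjustment the median was 0.27 and 11 were higher, and in the fl/del pair the median was 0.03. Without replicate 5 of wt/fl Spo11-Cre 2 were called and the median was 0.17, and without replicate 2 or 4 of wt/fl 4 were called. The summed level overlapped between groups, at 8763 to 10163 CPM in wt/fl and 10133 to 10744 CPM in 4 of the wt/fl Spo11-Cre libraries, with replicate 5 apart at 12811 CPM. The difference of the means was 1368 CPM with that library and 902 CPM without it. Ribosomal protein genes share reads with many processed pseudogenes, so single values are uncertain. These genes are short, with a median transcript of 630 bases against 1285 for all genes, and the median log2 fold change was 0.07 in the 20% of genes with the shortest and -0.05 in the 20% with the longest transcripts. Without replicate 5 of wt/fl Spo11-Cre these were 0.04 and -0.03. In that library Spearman's rho between a gene's level and its transcript length, across genes that are not independent, was -0.19, against -0.02 to 0.03 in the other 4 and 0.01 to 0.10 in wt/fl. The part of transcript length was not tested.

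Nuclear genes of oxidative phosphorylation were called in 5 of 84 cases, all higher, with a median of 0.17 and 79.8% above 0. Their sum was 11698 to 12728 CPM in wt/fl and 12392 to 12817 CPM in 4 of the wt/fl Spo11-Cre libraries, with replicate 5 apart at 15258 CPM. Without that library 1 gene was called, the median was 0.10, and the difference of the mean sums went from 1001 to 477 CPM. Without replicate 2 or 4 of wt/fl 1 was called as well. Cox6b2, a cytochrome c oxidase subunit best known from testis, had 78.7, 64.7, 76.3 and 79.8 CPM in wt/fl and 94.6, 103, 109, 115 and 153 CPM in wt/fl Spo11-Cre, a log2 fold change of 0.65 ± 0.13 (SE, adjusted p = 0.00366, edgeR), and -0.002 in the fl/del pair. Ndufa5, Cox6b1 and Atp5l rose by 0.45, 0.43 and 0.40. Of 77 mitochondrial ribosomal protein genes 3 were higher and 1, Mrpl37, was lower, with a median of 0.15, and none was called by edgeR without replicate 2 of wt/fl or replicate 5 of wt/fl Spo11-Cre. Of the 13 protein genes of the mitochondrial genome mt-Nd2 was higher, with a median of 0.24 in the wt/fl pair and 0.48 in the fl/del pair, where 2 were called higher. After the GC adjustment the median in the wt/fl pair was 0.11 and mt-Nd2 was not called (log2 fold change 0.34, adjusted p = 0.120, edgeR), and the median was 0.13 without replicate 2 and 0.47 without replicate 3 of wt/fl. Glycolysis and citric acid cycle genes held 3 lower genes of 38, namely Cs, Pkm and Dlat.

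In the spindle assembly, meiotic arrest, kinetochore and tubulin lists every called gene was lower. Of 66 spindle assembly genes 4 were called, all lower. Nek2, a centrosomal kinase, had 60.3, 59.7, 53.2 and 52.9 CPM in wt/fl and 33.8, 34.6, 24.7, 35.7 and 21.9 CPM in wt/fl Spo11-Cre, a log2 fold change of -0.89 ± 0.14 (SE, adjusted p = 7e-05, edgeR). In the fl/del pair its means were 41.7 and 41.6 CPM, between those of the wt/fl pair. Plk1 and Plk4, Polo-like kinases of spindle and centriole assembly, fell from 275 ± 34.3 to 194 ± 25.1 CPM and from 143 ± 13.99 to 106 ± 16.7 CPM, and the gamma-tubulin gene Tubg2 from 120.5 ± 21.5 to 86.2 ± 9.08 CPM. The list's median was -0.08. Of 47 meiotic arrest and resumption genes 7 were lower (14.9%), among them Cdc25a, a phosphatase that activates CDK, Ccna2, the cyclin A2 gene, Map2k1, a kinase of the MAPK cascade, and Anapc2, a subunit of the anaphase-promoting complex. They had log2 fold changes of -0.53, -0.41, -0.44 and -0.58, and the list's median was -0.07. After the GC adjustment 4 of the 47 were lower and 1 higher, and without replicate 2 or 4 of wt/fl 2 and 0 were called lower (edgeR). Of 49 kinetochore and checkpoint genes Fzr1 and Cdc20, the activators of the anaphase-promoting complex, were lower, and of 18 tubulin genes Tubg2 and Tubb3. None of the genes called lower in these lists was called in the fl/del pair. There 1 other kinetochore and checkpoint gene was called lower and 1 other tubulin gene, Tuba3b, was called higher.

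Motor genes were nearly level. Of 54 kinesin and dynein genes other than Kif11, Kif22 and Kif20a fell and the rest did not pass, with a median of 0.005. The list's sum was 5322 ± 26.98 CPM in wt/fl and 5120 ± 61.7 CPM in wt/fl Spo11-Cre (SD, n = 4 and 5), without overlap. Without Kif22 and Kif20a it was 4555 ± 44.2 and 4545 ± 77.5 CPM, with overlap. This was 1 of 3 lists among 31 whose sums did not overlap, and in each the sums overlapped without the called genes. Those genes were picked on the same difference in the same libraries, so leaving them out takes from it by design. Another was sterol synthesis, at 1793 ± 73.4 and 1552 ± 55.6 CPM, where 2 of 23 genes fell. These were Insig1, which holds back sterol synthesis, from 65.1 ± 9.01 to 44.3 ± 2.88 CPM, and Fdft1, squalene synthase, from 1097 ± 80.1 to 898 ± 66.9 CPM, and without them the sums were 631 ± 65.9 and 611 ± 12.2 CPM. The third was the PIWI and retroelement silencing list, at 2242 ± 35.7 and 2363 ± 42.8 CPM, where Gtsf1 of 23 genes rose, from 835 ± 74.9 to 995 ± 60.2 CPM. Without Gtsf1 the sums were 1406 ± 45.3 and 1369 ± 53.4 CPM.

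The genes nearest to the known work of SPO11 and of Cre gave no call. Of 42 meiotic recombination and synapsis genes and 43 DNA damage and p53 genes none passed the test (edgeR), with medians of 0.14 and 0.02, which after the GC adjustment were 0.04 and -0.01. At an unadjusted p under 0.05 there were 11 and 3, and DESeq2 called 4 and 1. For 12 genes of each list DESeq2 gave no adjusted p, so it could not call them. Of 24 interferon and nucleic acid sensing genes Bst2, a membrane restriction factor, rose from 15.3 ± 2.92 to 26.1 ± 4.72 CPM and Irf1 fell. Of 37 stress response genes Hsp90aa1 and the mitochondrial chaperonin gene Hspe1 rose, and of 28 BCL2 family and apoptosome genes Birc3 fell.

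Maternal mRNA and oocyte genes went both ways. Of 63 oocyte genes 5 were higher and 4 lower, with Oog2, Nlrp9b and Nlrp9c higher and Nobox lower among those named. Of 55 storage and decay genes 4 were lower and 1 higher. Cnot8, a catalytic subunit of the CCR4-NOT deadenylase, had 207, 213, 183 and 222 CPM in wt/fl and 155, 142, 137, 138 and 127 CPM in wt/fl Spo11-Cre, a log2 fold change of -0.54 ± 0.09 (SE, adjusted p = 0.000264, edgeR). Dcp1a, a decapping factor, fell from 228 ± 8.88 to 170.4 ± 19.6 CPM, while Eif4e1b, an oocyte cap-binding protein, rose, and its log2 fold change of 0.51 was 0.23 and not called without replicate 5 of wt/fl Spo11-Cre (93.2, 76.8, 80.03, 89.6 and 169 CPM against 66.6 to 77.8 in wt/fl). Of 45 actin and cortical granule genes Rab3d, a small GTPase of secretory granules, had 98.9, 117, 96.6 and 124 CPM in wt/fl and 64.3, 61.01, 59.3, 58.2 and 58.1 CPM in wt/fl Spo11-Cre, and Arpc3, a subunit of the Arp2/3 complex, 33.05, 31.6, 29.6 and 31.9 and 61.6, 57.9, 43.2, 38.7 and 61.4 CPM. The groups did not overlap for either, and their log2 fold changes were -0.84 ± 0.11 and 0.76 ± 0.15 (SE, adjusted p = 1.27e-06 and 0.00269, edgeR). In the remaining lists, splicing had 2 higher and 3 lower genes of 84, with Eftud2 and Crnkl1 lower and Srsf5 higher, nucleoporins 1 and 2 of 29, chromatin genes 1 and 1 of 48 (Ezh2 and Uhrf1), proteasome subunits 0 and 2 of 47 (Psmd2 and Psmd5), cohesin 1 and 0 of 19 (Esco2), while 38 clustered histone genes and 20 genes within 1 Mb of Kif11 had none by edgeR. At an unadjusted p under 0.05 these held 2 genes each, and DESeq2 called 0 and 1. It gave no adjusted p for 31 of the 38 histone genes and 10 of the 20 Kif11 neighbours, which it therefore could not call. The 19 histone genes with a mean count of at least 10 had a median of 0.34, the highest of the 31 lists. In the fl/del pair their median was -0.04, and the summed level of the histone list overlapped between wt/fl and wt/fl Spo11-Cre.

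**Figure D5:**
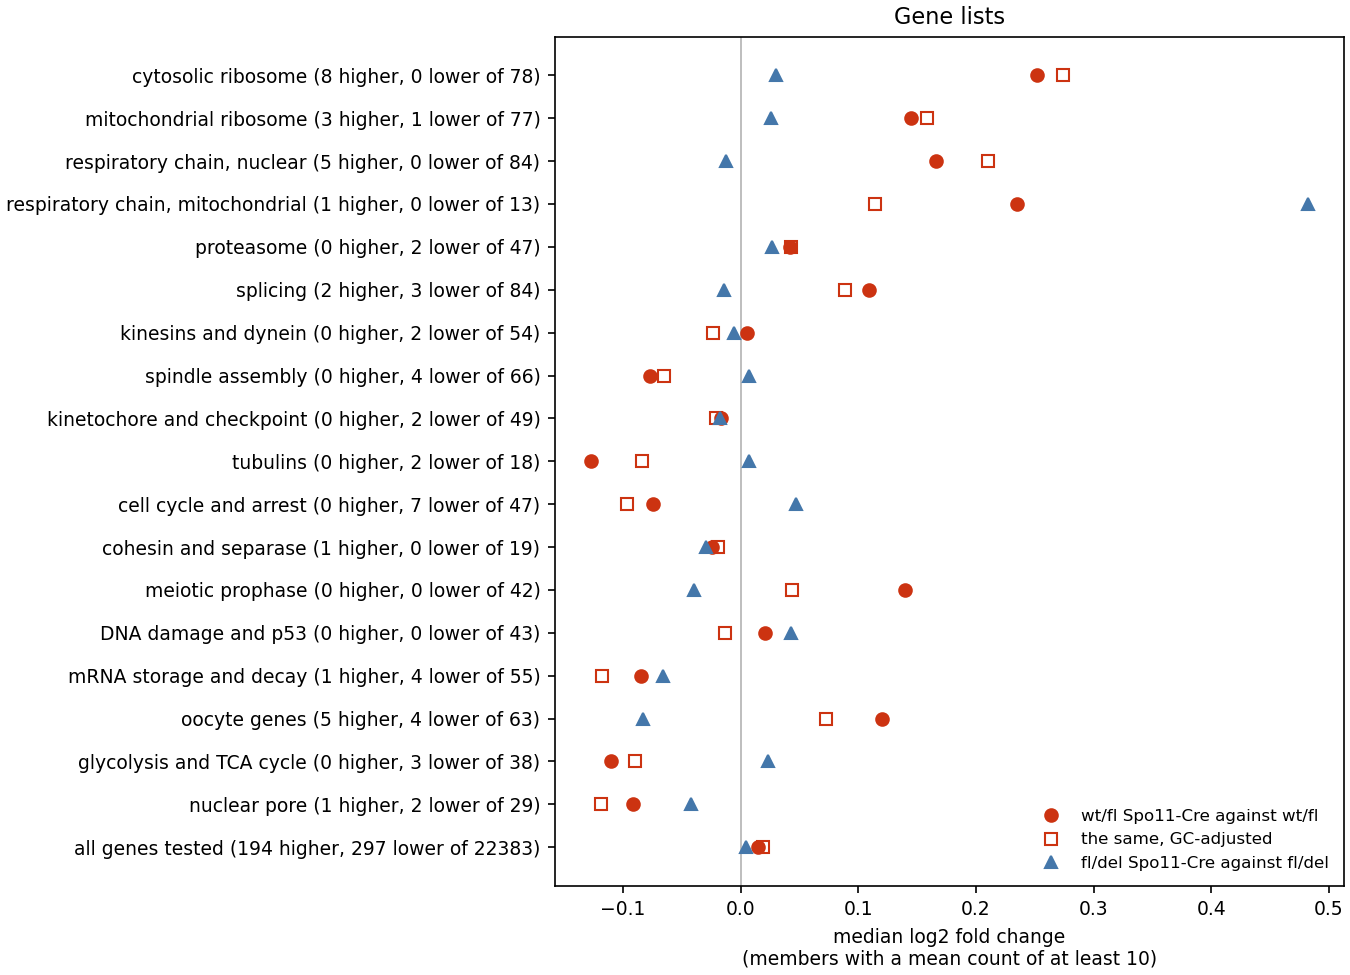
Median log2 fold change (horizontal) of the members of 18 gene lists and of all genes tested (vertical), over members with a mean count of at least 10, with the number called higher and lower in wt/fl Spo11-Cre beside each name. Circles are the wt/fl pair, open squares the same with the GC adjustment and triangles the fl/del pair. The cytosolic ribosome lies at 0.25 in the wt/fl pair and 0.03 in the fl/del pair, and the mitochondrially encoded genes at 0.24 and 0.48.

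Called genes were near each other about as often as other genes were near a called gene. Of the 491, 166 (33.8%, Wilson 95% interval 29.8 to 38.1) had another called gene starting within 500 kb, against 30.3% of 21879 other tested genes. The interval takes genes as independent, which neighbours are not, so it is too narrow. They formed 72 clusters, 10 of them with 3 or more genes, and in 46 of the 72 all genes moved the same way. The longest runs were 2 of 7 genes each. On chromosome 4, 7 of 21 tested genes over 714 kb rose. This is a family of oogenesin and PRAME-like genes, which have near-identical copies and pseudogenes, so their reads cannot be assigned with certainty. The pseudogene Gm13041 (chr4:143499435-143502095) had 24.6, 24.4, 18.3 and 19.06 CPM in wt/fl and 40.2, 44.4, 43.1, 49.1 and 39.5 CPM in wt/fl Spo11-Cre, a log2 fold change of 1.03 ± 0.15 (SE, adjusted p = 8.34e-06, edgeR). Gm13058, Gm13089, Gm13100, Gm13084, Oog2 and C87977 rose by 0.68, 0.45, 0.77, 0.33, 0.38 and 0.33. In the fl/del pair none of the 7 was called, and their log2 fold changes ran from -0.01 to 0.67.

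On chromosome 7, 7 of 66 tested genes over 1166 kb fell, in a gene-dense stretch with Kif22, the histone acetyltransferase gene Kat8, the ubiquitin ligase gene Rnf40, the MAP kinase gene Mapk3, Kctd13, Cdipt and Sephs2. Kat8 had 345, 361, 354 and 341 CPM in wt/fl and 289.5, 259, 272, 259.7 and 219.9 CPM in wt/fl Spo11-Cre, a log2 fold change of -0.41 ± 0.08 (SE, adjusted p = 0.00279, edgeR). After the GC adjustment Kif22 and Kat8 of the 7 stayed under an adjusted p of 0.05. On chromosome 17, the cluster with Uhrf1, Chaf1a, Ranbp3 and Sh3gl1 fell over 4 of 20 tested genes. Ranbp3, a nuclear export cofactor, had 113, 125, 98.1 and 137 CPM in wt/fl and 90.02, 61.01, 60.1, 84.7 and 67.3 CPM in wt/fl Spo11-Cre. Among the autosomes and X, between 1.18% (X) and 3.45% (6) of tested genes were called. On the mitochondrial genome it was 2 of 27 genes, and on Y none of 7.

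The effect of Cre differed between the wt/fl and fl/del pairs for 23 genes (0.103% of 22383, edgeR interaction term). Of them 5 were called higher and 11 called lower in wt/fl Spo11-Cre. Rab3d and Ranbp3 fell with Cre in wt/fl oocytes, and had mean CPM of 71.03 and 85.4 in fl/del and 66.6 and 92.5 in fl/del Spo11-Cre. For the other called genes the difference between the pairs did not pass the test, so that a call in the wt/fl pair alone does not show that the effect was particular to it.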

How the data were processed

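Poly(A) RNA of 3 GV oocytes per library was sequenced after SMART-seq v4 amplification (13 cDNA and 12 library PCR cycles). After fastp trimming, the authors used HISAT2 2.2.1 for alignment (GRCm38) and featureCounts 2.0.3 (Subread) for counting per gene. The deposited count tables hold raw whole counts over all exons, and on their own for exon 1 and exon 22 of Kif11. The deposited TPM tables hold the authors' counts scaled for transcript length and library total. The kit does not mark strand, and copies of near-identical genes cannot be told apart.

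Groups came from the genotype labels. Counts of the 17 wt/fl and fl/del libraries with and without Spo11-Cre were fitted together in edgeR 4.0.16 (R 4.3.3, TMM factors, quasi-likelihood test), for the 22383 genes detected (count above 0) in 3 libraries or more. A gene was called at a Benjamini-Hochberg adjusted p under 0.05, over all genes tested. For single values an exact permutation test was used (two-sided, scipy 1.17.1), which can reach 0.0159 for 4 against 5 libraries. Gene positions came from the GRCm38 annotation and promoter sequences from RefSeq. The fit was tested on simulated counts. DESeq2 1.42.0, other scaling factors, filters, libraries and count tables were tried as alternatives. Offsets that take out a lowess trend on transcript GC content (genes with a mean count of at least 50) were added after the data were seen, as were the list values without single libraries and the list sums without called genes.

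Named genes were up to 12 per direction with the largest change and 10 with the highest count among called genes without overlap, up to 4 called genes per list, the genes of the longest clusters, those called in both Cre comparisons, and the neighbours of Spo11 and Kif11. The members and lists were chosen with earlier results of these data known.

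Libraries of 1 name prefix may come from 1 mouse, which the labels do not say, so that p-values may in part measure technical spread. No pair of libraries agreed within sampling noise. Same-numbered libraries of the 2 groups did not deviate together (correlations from -0.07 to 0.08 over 4 pairs), so the numbers do not pair them. Intervals and floors cover counting error only, since PCR copies are not independent molecules. A count of 0 allows up to 3 counts in a library.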

Additional observations from a re-analysis of the deposited data

Results flagged for a closer look

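The log2 effect of Spo11-Cre in wt/fl oocytes less that in fl/del oocytes passed the interaction test (edgeR, adjusted p under 0.05) for 23 genes, and the difference is given for each. Kif11 differed by 2.32, with log2 fold changes of -0.47 in the wt/fl pair and -2.79 in the fl/del pair. mt-Rnr2, a mitochondrial ribosomal RNA gene, differed by -1.06, being called lower in the first pair and higher in the second. Lrmda and Gm8817 differed by 8.80 and -3.24, and both had few counts, with wt/fl means of 2.96 and 9.09 CPM. Among the other genes with a positive difference were Nlrp9b (0.57), Gm30198 (0.81), Mtus2 (0.58), Tmsb10 (0.92), Ooep (0.56), Igf1os (1.44) and Selenow (0.71). Those with a negative difference were Tuba3b (-1.36), Ada (-0.73), Fpgs (-0.89), Mpzl1 (-0.69), Ranbp3 (-0.77), Ankrd13a (-0.79), Rab3d (-0.72), Lingo2 (-1.17), Sh3gl1 (-0.76), Smarcd2 (-0.96), Tspan14 (-0.70) and Fam69b (-0.72).

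Single libraries stood apart from the rest of their group, by the gap to the nearest library over the group's range, for Tm9sf2 at 774 CPM in wt/fl replicate 1, Anapc2 at 23.3 CPM in wt/fl replicate 3, Eif4e1b at 169 CPM in wt/fl Spo11-Cre replicate 5, Rpl7 at 73.8 CPM in wt/fl replicate 3, Atp5l at 91 CPM in wt/fl Spo11-Cre replicate 5, Hspe1 at 196 CPM in wt/fl Spo11-Cre replicate 5 and C87977 at 1349 CPM in wt/fl Spo11-Cre replicate 5. Chance gives about 1 such library in 20 groups of this size, and 2 groups were looked at for each gene named in the report.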

How the results depend on the processing

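Leaving out each library in turn gave 67 to 237 genes called higher and 112 to 348 called lower with Cre, and 4 to 56 genes whose Cre effect differed between the genotypes. Those of higher and lower genes were lowest without wt/fl replicate 2. The share of called genes with a called neighbour ran from 19.9% to 41.4%, the median log2 fold change in the fl/del pair from 0.10 to 0.23 over the higher genes and from -0.05 to -0.04 over the lower ones. Kif11 ran from -0.60 to -0.34 and was not called in any of these fits (adjusted p from 0.107 to 0.532, edgeR). The ratios of wt/fl Spo11-Cre to wt/fl ran from 0.862 to 0.916 for the follicle markers, 0.703 to 0.828 for blood and stroma markers, 0.979 to 1.05 for oocyte markers, 0.994 to 1.22 for mitochondrially encoded genes, 1.17 to 1.27 for total counts and 1.03 to 1.05 for genes detected. The oocyte ratio was 0.979 and 0.987 without wt/fl replicates 1 and 3, and 0.990 without wt/fl Spo11-Cre replicate 3, and the mitochondrial ratio 0.994 without wt/fl replicate 2, where neither differed by the exact permutation test. With TMM-scaled totals the follicle ratio was 0.902 (exact permutation p = 0.0952).

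DESeq2 called 389 genes higher and 542 lower, with 52.3% near another and 74 genes in the interaction. Without a filter there were 336 higher, 43.5% and 138, with filterByExpr 2 in the interaction, and with all 21 libraries 80 higher, 172 lower, 21.4%, 4 and a fl/del median of 0.22. Counts made with exon 22 gave 42 genes in the interaction, and total counts without factors 39% and 40. Sums over a shared name prefix gave 26.7% and 11. GC-adjusted offsets gave 26.7% and 13, and on those sums 168 lower, 22.3% and 10. Neighbours within 0.25 Mb or 1 Mb gave 22.8% and 54.4%. The cause of these moves was not tested.

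The replicate number as a block gave 177 genes higher and 277 lower and 96 in the interaction, and the numbers share no more than a name. Over all named genes and alternatives 2991 results kept their direction and side of the threshold, 597 lost the call, 9 gained one and none changed direction. At these depths changes of scarce genes rest on few counts.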

Other observations

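Among 6879 abundant genes, a few split by the prefix of the library name within a genotype, as Crnkl1 did in wt/fl. They were chosen after their values were seen, and no test was made. Gm47180 had 61.5 and 60.9 CPM in replicates 1 and 2 of wt/fl Spo11-Cre, 14.6 and 14.2 CPM in replicates 3 and 4 and 57.1 CPM in replicate 5. In fl/del Spo11-Cre it had 65.5 and 54.2 CPM in 2 libraries of one prefix and 13.0 and 13.0 CPM in those of the other. 2410141K09Rik, a gene of a zinc finger family with near-identical copies, had 37.6 and 37.9 CPM in replicates 1 and 2 of wt/fl and 95.8 and 72.6 CPM in replicates 3 and 4. In fl/del it had 9.27 and 12.3 CPM against 63.3 and 46.0 CPM. The 5 wt/fl Spo11-Cre libraries did not share this split, at 42.6 to 54.2 CPM.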
